A study of Bos taurus with 147 samples.

Results

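Expression of 6 genes of the extracellular matrix that are neither collagens nor proteoglycans was followed in bovine longissimus muscle: FN1, FBN1, SPARC, THBS2, SPP1 and MGP. They were taken as the array elements that carry only one of these symbols, which gave 94 of the 21168 elements of a cDNA microarray and 6 of its 976 genes with a name of their own. On an array, RNA from a pair of groups was hybridised together, one in Cy5 and the other in Cy3, and the value of a gene is the log2 ratio of the dyes, averaged over its elements after the median of the array was set to 0. In 25 arrays, longissimus muscle of fetuses and newborn calves was compared at d 60, d 135 and d 195 of gestation and at birth, with RNA that was amplified by the methods. The methods give day 130 for the second stage and place the newborn samples within a day of birth.

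All fetuses and calves were out of Hereford dams and were sired by Piedmontese bulls (PxH), which carry a mutation of the myostatin gene GDF8 on both copies, or by Wagyu bulls (WxH), which do not. The methods name 3 animals per group, and a single bull of each sire breed sired all d 60 fetuses, so that sire and breed cannot be told apart there. The bull of the d 60 WxH fetuses also sired all d 135 WxH fetuses. By the paper's list of animals, every d 135 PxH fetus was younger than every d 135 WxH fetus. Age and sire breed cannot be told apart at that stage. Another single bull sired all d 195 PxH fetuses, which included a pair of twins. All newborn calves were female, whereas both sexes were among the fetuses. The 8 groups formed a closed loop with 3 arrays per link (4 for WxH d 195 against d 135), all of one dye orientation within a link. The sire breeds therefore met on the same array at d 60 and at birth, and were joined at d 135 and d 195 by chains of arrays. In a further 20 arrays, PxH and WxH animals were compared at 3 later times, T1, T2 and T3, whose ages the labels do not give: 4 arrays set the sire breeds against each other at each time with the dyes alternating, and 2 arrays per sire breed joined T1 to T2 and T2 to T3. On these joining arrays the earlier time was in Cy5 in PxH and in Cy3 in WxH. Their single-array values therefore also carry dye differences between the sire breeds. Nothing in the labels links an array number to an animal, so that the P-values measure the spread between arrays, part of which may be technical. The labels give the dye of each sample, and for the fetal arrays the design drawing does too, but neither names the dye on top of the deposited ratio, which was taken as Cy5, so that the direction is called likely.

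Fetal muscle is laid down as fibres inside a connective tissue that is rich in matrix, and that matrix is remodelled as the fibres grow and mature. Fibronectin (FN1) is a large adhesive glycoprotein that binds integrins and collagens, and fibrillin (FBN1) builds the microfibrils that carry elastin and bind latent growth factors of the TGF-beta family. SPARC, thrombospondin 2 (THBS2) and osteopontin (SPP1) are matricellular proteins, which modulate contacts between cells and matrix more than they build fibres. MGP, matrix Gla protein, is a vitamin K dependent inhibitor of calcification made by vascular smooth muscle, cartilage and fibroblasts. In whole muscle, fewer cells of a type and less RNA per cell cannot be told apart.

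From d 60 to birth, 5 of the 6 genes fell and MGP rose. FN1 fell by 4.67, the most of the 6, on the log2 scale as the mean of both sire breeds (SE 0.26, adjusted p = 5.73e-11 by limma), which is 25.4 times lower at birth. SPP1 was 13.4 times lower, THBS2 6.44 times, SPARC 6.17 times and FBN1 5.76 times, while MGP was 2.00 times higher (log2 1.00, SE 0.25, adjusted p = 0.00194). In this comparison 25.6% of all 16659 features were past the threshold (an adjusted p of 0.05) in the lower and 22.6% in the higher direction, 48.2% in all, so that passing it was common, and the median of all features was -0.07.

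**Figure D1:**
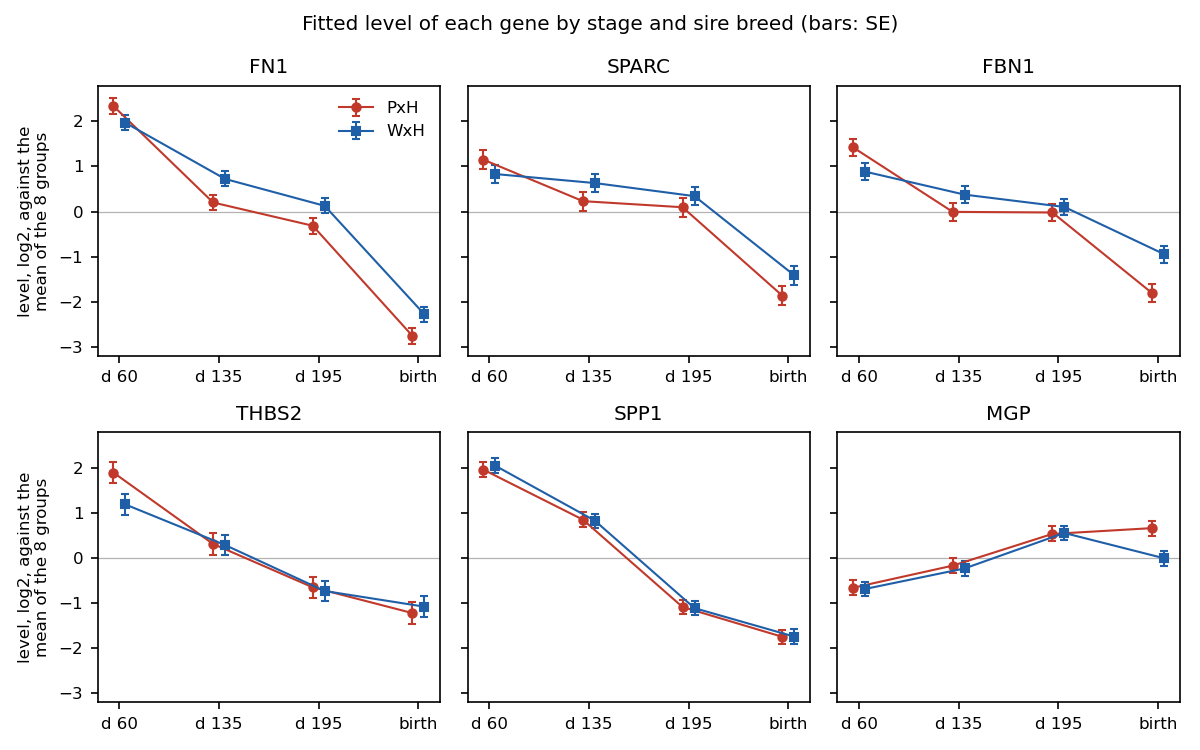
Fitted log2 level of each gene (vertical axis, against the mean of the 8 groups) by stage, with PxH as red circles, WxH as blue squares and bars of 1 SE. FN1 runs from 2.34 in PxH at d 60 to -2.75 in PxH at birth, SPP1 drops most between d 135 and d 195, and MGP rises from -0.69 in WxH at d 60.

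FN1 fell in the first and the last interval, and little in between. The ratios of d 135 over d 60 were -1.99, -2.19 and -2.20 on the PxH arrays and -1.26, -1.04 and -1.46 on the WxH arrays. The PxH arrays were all lower, but the difference of -0.89 was not past the threshold (adjusted p = 0.0875 by limma). The d 60 group was in Cy5 on the PxH arrays and in Cy3 on the WxH arrays, so that single-array values also carry dye differences. The share of all features that separate like this was not counted. From d 135 to d 195 the FN1 ratios were -0.55, -0.73 and -0.24 in PxH and -1.04, -0.49, -0.33 and -0.57 in WxH. From d 195 to birth they were -2.09, -1.79 and -3.41 in PxH and -2.65, -2.23 and -2.36 in WxH. All 19 arrays along the stages were thus below 0. As means of both sire breeds the 3 steps were -1.69 (SE 0.15), -0.56 (SE 0.14, adjusted p = 0.0101) and -2.42 (SE 0.15). The middle step was not called without the arrays numbered 1 (-0.47, adjusted p = 0.14) or 2 (-0.52, adjusted p = 0.0972). In the order of fitted levels, both d 60 groups stood above the rest, WxH d 60 being 1.24 above WxH d 135 (adjusted p = 0.000497), and the d 195 groups stood above both birth groups by at least 1.96 (adjusted p = 3.63e-05), while no other neighbours in the order differed past the threshold.

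FBN1 also fell in the first and the last interval as the mean of both sire breeds, with smaller steps. FBN1 on the d 135 over d 60 arrays was -1.30, -1.20 and -1.47 in PxH and -0.61, -0.38 and -0.86 in WxH. The dyes of the stages were reversed between the PxH and the WxH arrays. The difference of -0.92 between the sire breeds was not past the threshold (adjusted p = 0.127 by limma). From d 135 to d 195 FBN1 went either way, from -0.76 to 0.30 over the 7 arrays. It then fell on all 6 arrays from d 195 to birth, to -1.43, -0.96 and -2.65 in PxH and -1.04, -0.69 and -1.71 in WxH. The mean steps were -0.97 (SE 0.17, adjusted p = 0.000192), -0.14 (SE 0.16, adjusted p = 0.59) and -1.41 (SE 0.17, adjusted p = 5.27e-07).

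SPARC, which binds collagen and calcium, was nearly level in WxH at first, at -0.09, -0.09 and -0.19, against -1.26 to -0.72 on the 3 arrays of PxH. Its mean first step was -0.56 (SE 0.18, adjusted p = 0.0233), which was not called without the arrays numbered 2 (-0.57, adjusted p = 0.173) or with the ratios at the limit of the table kept (-0.50, adjusted p = 0.0713). The large fall came before birth, with -1.10, -1.70 and -3.28 in PxH and -1.93, -1.52 and -1.58 in WxH (mean -1.85, SE 0.18, adjusted p = 3.67e-08). The third PxH array of this link was the lowest of its link for FN1, SPARC, FBN1 and THBS2. Without the arrays numbered 3 the PxH fall was -1.97 for FN1, -1.38 for SPARC and -1.31 for FBN1, in place of -2.44, -1.96 and -1.78, and each was still past the threshold.

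The WxH arrays of birth over d 195 had a median absolute deviation of all elements of 1.03, 0.95 and 0.74, against 0.32 to 0.80 on the arrays of the other links, so that the first and second were the widest of the fetal arrays. Scaling all arrays to the same spread took the WxH step of FN1 from -2.40 to -1.46 and that of SPARC from -1.75 to -1.11, both still past the threshold. That of FBN1 went from -1.04 to -0.55 (adjusted p = 0.097) and that of SPP1 from -0.63 to -0.28 (adjusted p = 0.308), so that both calls were lost.

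**Figure D2:**
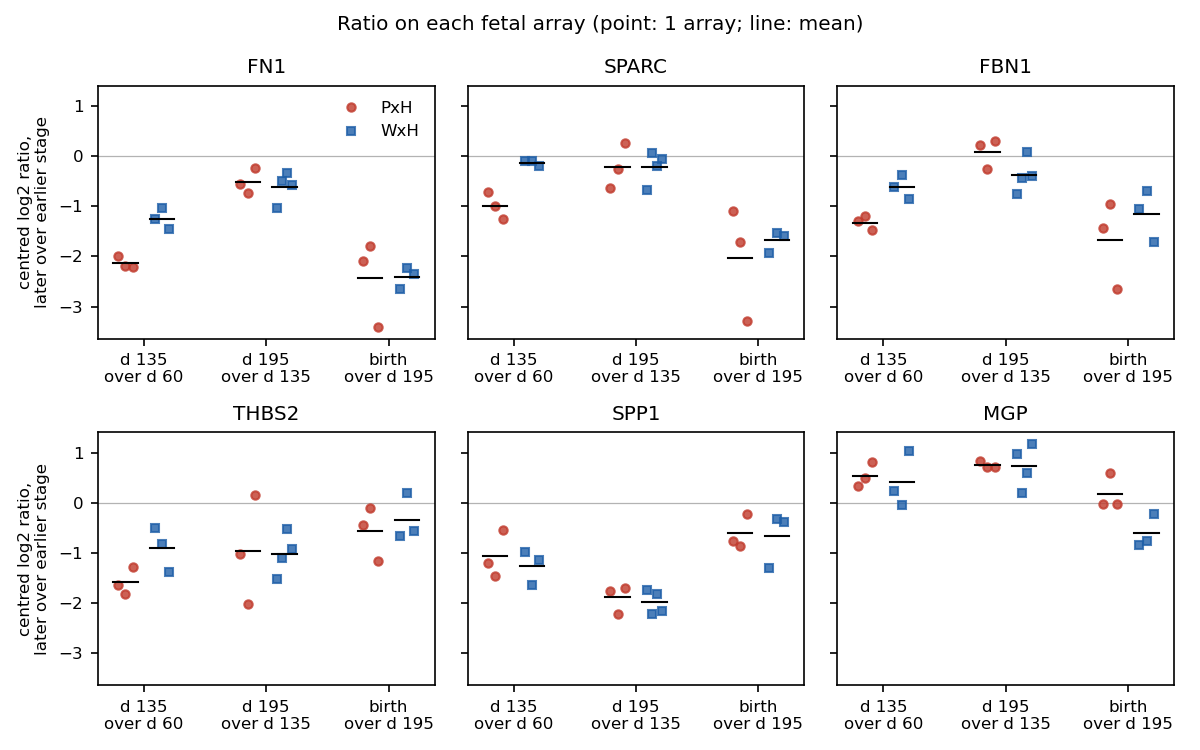
Centred log2 ratio of each fetal array (vertical axis, later over earlier stage) for the 3 steps, with PxH as red circles, WxH as blue squares and the mean as a line. For FN1, SPARC and FBN1, 1 PxH array of birth over d 195 lies apart at -3.41, -3.28 and -2.65. The dyes of the stages are reversed between the PxH and the WxH arrays.

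SPP1 and THBS2 had their smallest mean step in the last interval, and the intervals of a gene were not tested against each other. SPP1, a phosphoprotein that binds integrins and CD44, fell most between d 135 and d 195: the ratios were -1.75, -2.22 and -1.70 in PxH and -1.74, -2.23, -1.82 and -2.15 in WxH, with the sire breeds overlapping. The mean step was -1.94 (SE 0.13, adjusted p = 5.05e-09), 3.83 times lower. It was preceded by -1.16 (SE 0.14) from d 60 to d 135 and followed by -0.64 (SE 0.14) to birth. In this middle interval 6.19% of all features were past the threshold in the lower direction, and FN1, THBS2 and SPP1 were among them.

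THBS2, which limits vessel growth and takes part in collagen fibril assembly, fell by 1.24 (SE 0.21) from d 60 to d 135 and by 0.99 (SE 0.19, adjusted p = 0.00141) from d 135 to d 195. Its arrays were spread more than those of the other genes in the middle interval, at -1.02, -2.02 and 0.15 in PxH and -1.52, -1.10, -0.52 and -0.92 in WxH, and the mean was not called without the arrays numbered 1 (-0.89, adjusted p = 0.0549) or 2 (-0.71, adjusted p = 0.0505). From d 195 to birth it was -0.46 (SE 0.21, adjusted p = 0.0693), not past the threshold. Without the arrays numbered 2 this last step was -0.71 and was past it (adjusted p = 0.0204 by limma). THBS2 is read from 2 elements of a single clone.

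MGP moved the other way until d 195. Its ratios were 0.33, 0.48 and 0.80 in PxH and 0.23, -0.04 and 1.02 in WxH from d 60 to d 135, then 0.84, 0.70 and 0.72 in PxH and 0.98, 0.19, 0.60 and 1.17 in WxH from d 135 to d 195. The mean steps were 0.47 (SE 0.14, adjusted p = 0.0165) and 0.74 (SE 0.14, adjusted p = 0.000741). The first was not called without the arrays numbered 1 (0.57, adjusted p = 0.0559) or 3 (0.25, adjusted p = 0.299). From d 195 to birth the PxH arrays gave -0.02, 0.58 and -0.02 and the WxH arrays -0.84, -0.77 and -0.22, with the dyes of the stages reversed. The WxH fall of 0.56 (SE 0.19) was past the threshold with an adjusted p of 0.0219 and the PxH value of 0.13 was not, but the difference of 0.69 between them was not past it either (adjusted p = 0.204). Left out in turn, the arrays numbered 1 or 2 ended the WxH call, with an adjusted p of 0.196 and 0.0734, as did the scaling of the arrays to the same spread (-0.36, adjusted p = 0.246).

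Counted by interval, all 6 genes were past the threshold from d 60 to d 135 as means of both sire breeds, where 31.0% of all features were, 4 from d 135 to d 195 (16.8% of features) and 4 from d 195 to birth (52.5%). By sire breed, 5 genes passed from d 60 to d 135 in PxH, all but MGP (26.7% of features), and 3 in WxH, FN1, THBS2 and SPP1 (11.8%). From d 135 to d 195, THBS2, SPP1 and MGP passed in PxH (4.95%), and these and FN1 in WxH (8.33%). From d 195 to birth FN1, SPARC, FBN1 and SPP1 passed in PxH (39.7%) and these and MGP in WxH (44.6%). None of the 6 genes differed between the sire breeds past the threshold in a single interval, where 0, 0.0120% and 0 of all features did by limma. At an unadjusted p under 0.05, 1702 features did in the first interval and 2900 in the last. FN1 had the lowest adjusted p, at 0.0875 for a difference of -0.89 (SE 0.26) from d 60 to d 135.

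The change from d 60 to birth was larger in PxH than in WxH for FN1 and FBN1. FN1 was at -5.09 in PxH and at -4.24 in WxH, a difference of -0.85 (95% interval -1.39 to -0.31, adjusted p = 0.0383). FBN1 was at -3.23 in PxH, 9.36 times lower, and at -1.83 in WxH, 3.55 times lower, a difference of -1.40 (SE 0.29, adjusted p = 0.00936). In each sire breed all 6 genes were past the threshold, as were 44.9% of all features. MGP was higher at birth by 1.32 in PxH (adjusted p = 0.000518) and by 0.68 in WxH (adjusted p = 0.0478), and the WxH call was lost under 9 of 13 alternatives, among them no centring of the arrays (0.47, adjusted p = 0.249). For the difference between the sire breeds, 7.94% of all features were past the threshold with a lower PxH change and 13.2% in either direction. Neither call held without the arrays numbered 2, with adjusted p of 0.222 for FN1 and 0.0903 for FBN1, or without those numbered 3, with 0.21 and 0.0866. With either removal at most 4 of all features were past the threshold, against 2198 before. The paper proposes that amplification may have biased the RNA of a single d 60 PxH animal, seen for the gene MATR3. At d 60 the longissimus was not yet distinct, and an area at its future position was taken. For these reasons the paper focused its discussion on the later stages. The part of either in the differences here was not tested.

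The other 4 genes were not past the threshold for this difference. SPARC had -0.77 (95% interval -1.42 to -0.11, adjusted p = 0.106), THBS2 -0.85 (-1.59 to -0.10, adjusted p = 0.117), MGP 0.64 (0.12 to 1.16, adjusted p = 0.0912) and SPP1 0.08 (-0.42 to 0.59, adjusted p = 0.853). SPP1 fell by 3.70 in PxH and 3.78 in WxH. Of the fibroblast markers, COL3A1 had a larger fall in PxH by the same test (-1.20, adjusted p = 0.00399), and COL1A1, COL1A2, DCN and LUM, from -1.04 to -0.18, were not past the threshold. None of 11 muscle fibre markers was, and of 8 adipocyte markers SCD was, at -1.92 (adjusted p = 0.012). Of the receptors ITGB1 passed, at -1.64 (adjusted p = 0.000842). The part of connective tissue or fat content in the difference was not tested.

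Put against each other at one stage, the sire breeds did not differ past the threshold for any of the 6 genes at d 60, d 135, d 195 or birth. Few of all features did: 0.0480% at d 60, 0 at d 135 and at d 195, where 262 and 446 had an unadjusted p under 0.05 by limma, and 0.276% at birth. At d 60 FBN1 was higher in PxH on all 3 arrays, at 0.70, 0.53 and 0.69, and THBS2 at 0.57, 0.71 and 0.83, with adjusted p of 0.313 and 0.281. At birth FBN1 was lower in PxH on all 3, at -1.19, -0.56 and -1.14 (fitted -0.86, SE 0.22, adjusted p = 0.0712). MGP at birth was higher in PxH at 0.32, 0.80 and 0.73 (fitted 0.67, SE 0.19, adjusted p = 0.0962). FN1 was on the same side as FBN1 at both ends, at 0.20, 0.41 and 0.53 at d 60 and -0.27, -0.32 and -0.88 at birth. For SPP1 the fitted difference was between -0.09 and 0.03 at the 4 stages, with 95% intervals of -0.47 to 0.30 at d 60 and -0.39 to 0.38 at birth, the stages where both breeds shared arrays.

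Every clone of a gene moved in the direction of its mean from d 60 to birth. The 8 FN1 clones ranged from -5.11 to -2.98, with 7 of them between -5.11 and -4.61. The 25 SPARC clones ranged from -3.25 to -0.68, and the 3 weakest were -1.38, -1.33 and -0.68. The 4 FBN1 clones lay between -3.09 and -1.73, the 3 SPP1 clones between -4.38 and -2.86 and the 5 MGP clones between 0.43 and 1.59.

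**Figure D3:**
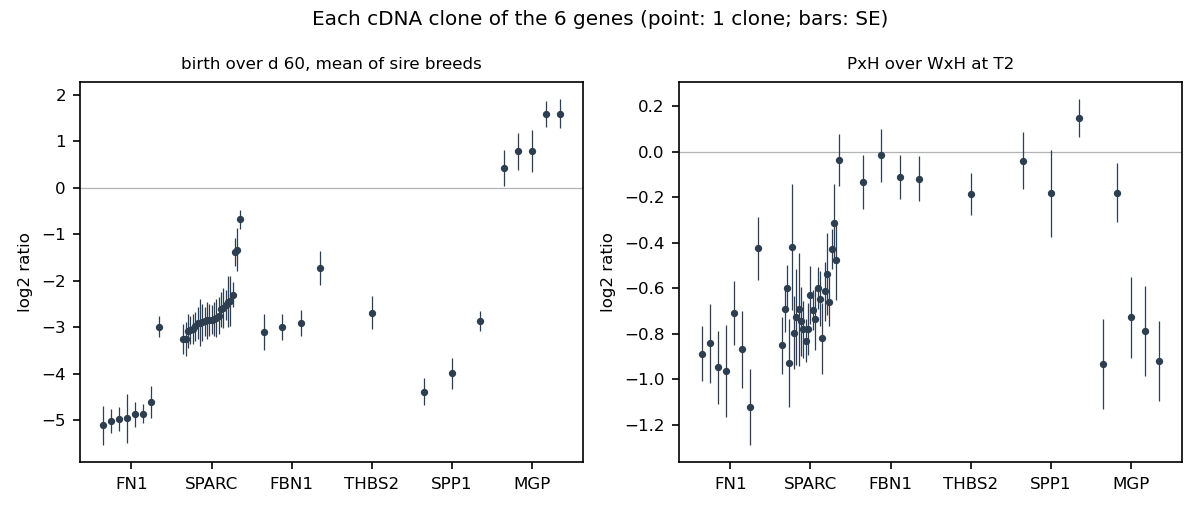
Fitted log2 ratio (vertical axes) of each cDNA clone of the 6 genes, with bars of 1 SE, for birth over d 60 on the left and for PxH over WxH at T2 on the right. All FN1, SPARC, FBN1, THBS2 and SPP1 clones lie below 0 on the left, and all 8 FN1, 25 SPARC and 5 MGP clones lie below 0 on the right.

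Other matrix genes, from lists chosen by function, are set beside the 6 genes for birth over d 60. Of 7 collagens measured, 5 fell and none rose, with a median of -2.97. COL12A1, a fibril-associated collagen, was at -4.28, COL3A1, a fibrillar collagen of young matrix, at -3.88 and COL1A2, a chain of type I collagen, at -3.49. All 8 small proteoglycans and glypicans measured fell (median -2.28), led by the glypican GPC3 at -4.40, lumican (LUM), which binds collagen fibrils, at -3.36 and fibromodulin (FMOD), of the same family, at -2.70. Of 4 other matricellular genes CCN2, a growth factor that binds matrix, fell by 1.83 and TNXB, a tenascin, by 0.80, while CCN1 at 0.49 and SMOC1 at -0.90 were not past the threshold. Of the fibrillin partners, LTBP2, which binds fibrillin, fell by 0.86 and elastin (ELN) at -0.32 was not past it. ITGB1, the beta chain of the fibronectin receptor, fell by 1.87, whereas CD36, a receptor of thrombospondins and of fatty acids, rose by 0.77, and ITGA5 and LRP1, at -0.81 and -0.65, were not past the threshold. Of 9 matrix enzymes and inhibitors 5 fell, with PCOLCE, the enhancer of procollagen processing, at -2.72, the inhibitors TIMP1 at -1.48 and TIMP2 at -1.31, and none rose. MGP and CD36 were the genes of this set that rose. Only 2 of 14 listed fibrillin microfibril and elastic fibre genes and 4 of 10 receptors were on the array under a name.

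**Figure D4:**
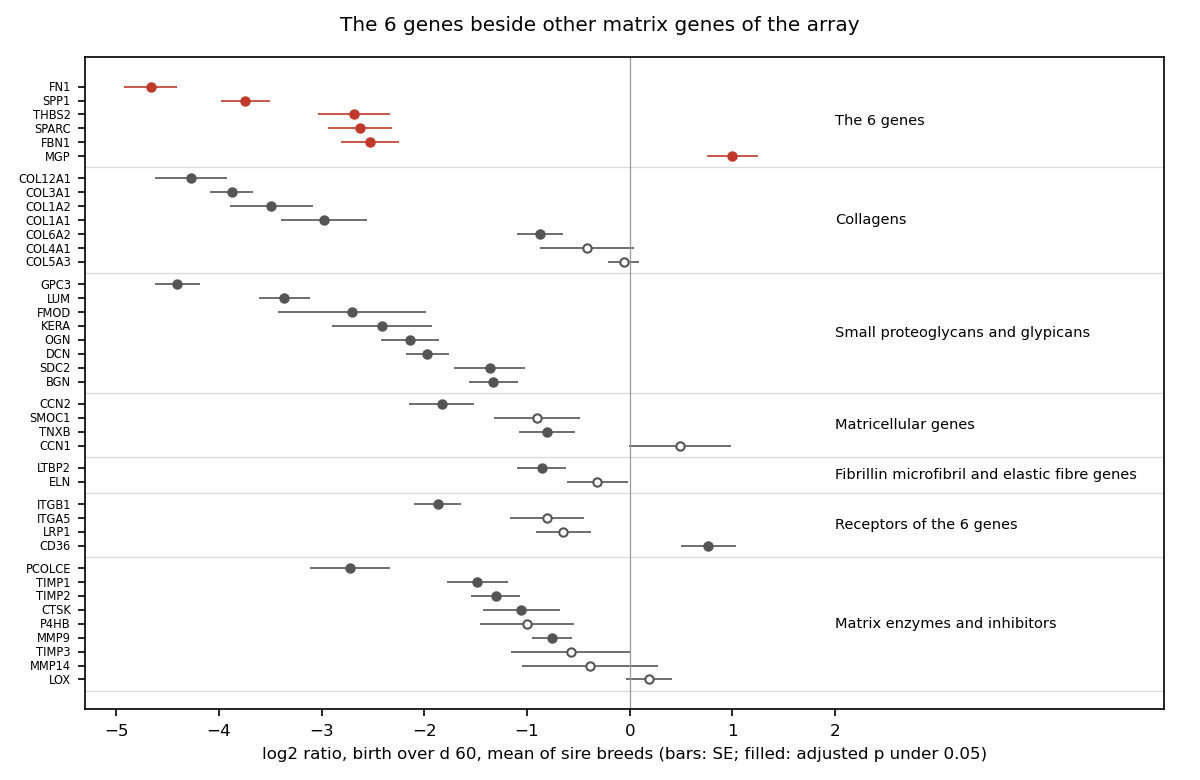
Log2 ratio of birth over d 60 (horizontal axis, mean of the sire breeds, bars of 1 SE) for the 6 genes in red and the other matrix genes measured in grey, by list, with filled points past the threshold. FN1 at -4.67 lies beside GPC3 at -4.40 and COL12A1 at -4.28, and MGP at 1.00 lies apart from the other 5.

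All 11 muscle fibre markers measured rose from d 60 to birth (median 2.67), among them CKM at 3.63 and MB at 3.32. Ratios between stages do not show which muscle was sampled. All 5 fibroblast markers measured fell (median -3.36), which moved with the fall of the 5 genes, and the part of fibroblast number in it was not tested. Of 3 endothelial and mural markers EGFL7 fell by 2.48 and ACTA2 (0.25) and CNN1 (-0.57) were not past the threshold. Of 5 immune markers CD74 and S100A8 rose by 0.78 and 0.58 and CTSS fell by 0.70. Of 8 adipocyte markers LPL rose by 1.16, and SCD and PLIN1 fell by 1.73 and 0.45. Overlying skin was harder to separate from the muscle area at d 60, and no marker of epidermis, cartilage and bone, nerve or blood was measured under a name, so that the share of such tissue in the d 60 level was not tested. Without the d 60 arrays and without the dye term, the step from d 195 to birth is the mean of its own arrays. In PxH it was -2.43 for FN1, -2.03 for SPARC and -1.68 for FBN1, and in WxH -2.41, -1.68 and -1.15. These values do not bear on the d 60 level.

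The genes whose ratios ran most like each of the 6 over the 25 fetal arrays were looked up among 969 named genes, as a description. For FN1 these were VIM, the filament protein of mesenchymal cells (Pearson r = 0.96), and PHLDB2 (0.96), and for SPARC COL1A2 (0.98) and HSD17B4 (0.97). For FBN1 they were FLVCR2 (0.97) and PAM (0.92), and for THBS2 RECK, an inhibitor of matrix metalloproteinases (0.90), and COL12A1 (0.88). SPP1 had COL12A1 (0.81) and FGL2 (0.76), and MGP had COX4I1 (0.82) and NDUFA6 (0.81), which encode subunits of the respiratory chain. Among the 6 genes, FN1, SPARC and FBN1 correlated at 0.89 to 0.93 with each other, THBS2 with SPP1 at 0.78, and MGP with the other 5 at -0.62 to -0.10. Over the 20 later arrays FN1, SPARC and FBN1 correlated at 0.66 to 0.80 with each other, and THBS2 at 0.75 with SPP1 and at 0.69 with MGP. These arrays share groups and stages, so that the values describe one design.

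In the later animals, of the 6 genes SPARC and MGP fell from T1 to T3, by 1.31 (SE 0.15, adjusted p = 0.00146), 2.47 times, and by 1.33 (SE 0.24, adjusted p = 0.0113), 2.51 times, as means of both sire breeds. In the lower direction 0.562% of 17253 features were past the threshold, and 0.759% in either. Both genes passed in PxH (0.927% of features), and SPARC alone in WxH (0.151%), where MGP was at -1.11 (adjusted p = 0.117). FN1 (-0.47, adjusted p = 0.573), FBN1 (-0.47, adjusted p = 0.269), THBS2 (-0.14) and SPP1 (0.09) were not, with 95% intervals of -0.91 to -0.03 for FN1 and -0.25 to 0.43 for SPP1. Of the collagens COL1A1, COL1A2 and COL3A1 fell by 1.12, 1.05 and 1.14, and no other gene of the matrix lists was past the threshold. None of the muscle fibre, endothelial, immune or adipocyte markers was.

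As means of both sire breeds, SPARC was past the threshold from T2 to T3 and MGP from T1 to T2, and the difference between the intervals was not tested. SPARC on the T3 over T2 arrays was -0.91 and -0.97 in PxH and -1.49 and -1.03 in WxH (mean -1.10, SE 0.10, adjusted p = 0.000113), and over T1 to T2 it was -0.48 and -0.49 in PxH and 0.14 and 0.01 in WxH. MGP fell from T1 to T2, at -1.49 and -1.64 in PxH and -0.92 and -0.08 in WxH (mean -1.03, SE 0.17, adjusted p = 0.00369), and was -0.20 and -0.21 in PxH and -0.62 and -0.14 in WxH from T2 to T3. From T2 to T3, FN1 also fell (-0.50, SE 0.15, adjusted p = 0.0394) and SPP1 rose (0.42, SE 0.11, adjusted p = 0.0245), where 3.98% of features were past the threshold in the lower and 6.73% in the higher direction. In the same interval 3 of 5 fibroblast markers fell (COL1A1, COL1A2 and COL3A1, by 1.08, 0.98 and 0.87), 5 of 11 muscle fibre markers fell, from -0.74 to -0.32, and of the mural and endothelial markers EGFL7 and CNN1 fell by 0.59 and 0.51. Of 8 adipocyte markers FABP4 and SCD fell by 0.52 and 1.15 and LEP rose by 0.69, and the part of these tissues in the values was not tested. On single arrays FN1 was below 0 on all 4 and SPP1 above 0 on 3 of 4. From T1 to T2, 4.06% of features were past it in the lower direction and 6.86% in either, and from T2 to T3 10.7% in either. By sire breed, SPARC and MGP passed from T1 to T2 in PxH (5.38% of features) and none of the 6 in WxH (3.35%), and from T2 to T3 SPARC passed in PxH (3.76%) and FN1, SPARC and SPP1 in WxH (9.67%). Without the arrays numbered 1 or 2, MGP from T1 to T2, and FN1 and SPP1 from T2 to T3, were no longer called, and SPARC from T2 to T3 was lost without those numbered 2 (-1.20, adjusted p = 0.116). With 1 array left per link, the calls of SPARC and MGP from T1 to T3 were lost. Without the arrays numbered 1 or 2, SPARC was -1.24 and -1.37 (adjusted p = 0.36 and 0.319) and MGP -1.03 and -1.62 (adjusted p = 0.726 and 0.52).

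The sire breeds differed at T2 in FN1, SPARC and MGP, all lower in PxH. The 4 arrays of PxH over WxH gave -1.20, -1.01, -0.77 and -0.41 for FN1, -0.96, -0.82, -0.47 and -0.38 for SPARC and -0.54, -0.75, -0.81 and -0.75 for MGP. All 12 values were below 0, in both dye orientations. The fitted differences were -0.85 (SE 0.12, adjusted p = 0.000547), -0.64 (SE 0.09, adjusted p = 0.00028) and -0.71 (SE 0.14, adjusted p = 0.00837), which is 1.80, 1.56 and 1.64 times lower, where 2.36% of features were past the threshold in the lower direction and 3.28% in either. FBN1 (-0.10, 95% interval -0.29 to 0.09), THBS2 (-0.19, -0.38 to 0.01) and SPP1 (-0.03, -0.23 to 0.18) were not past it. The 3 calls were lost without the arrays numbered 1, with FN1 at -0.73 (adjusted p = 0.0638), SPARC at -0.52 (adjusted p = 0.0858) and MGP at -0.76 (adjusted p = 0.0904). SPARC (adjusted p = 0.0639) and MGP (adjusted p = 0.21) were also lost without those numbered 2, and MGP with a block for the array number (-0.54, adjusted p = 0.194).

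**Figure D5:**
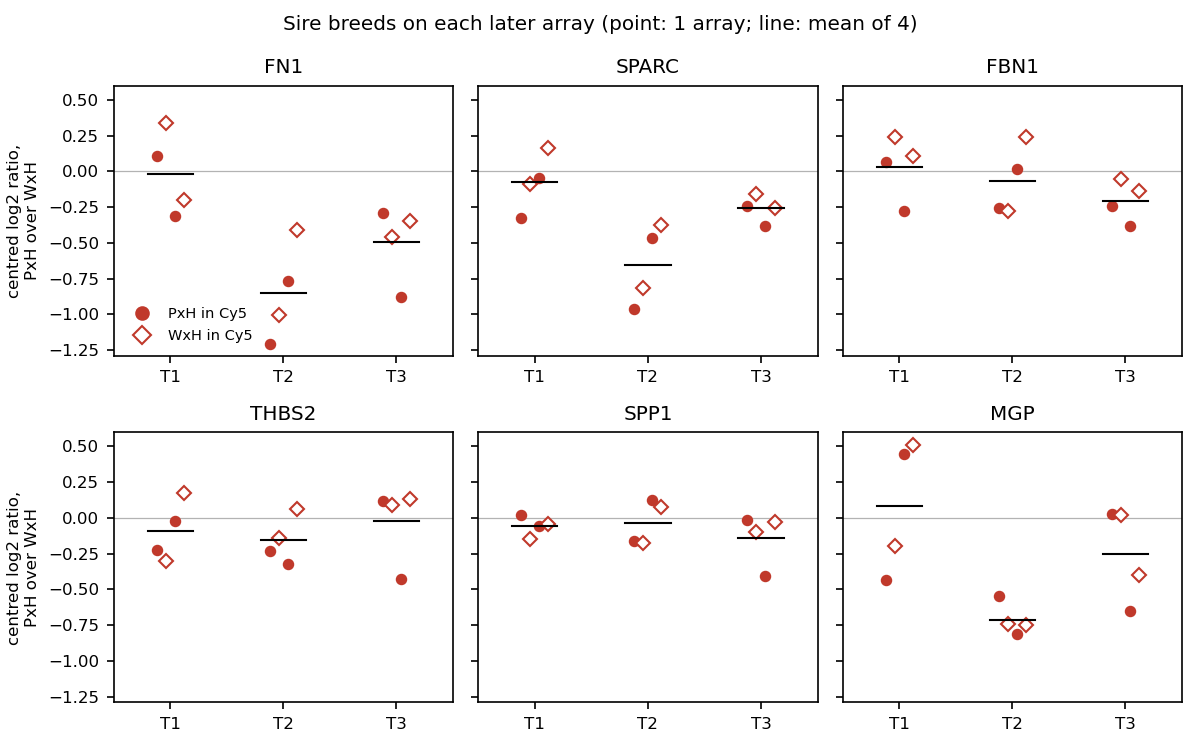
Centred log2 ratio of PxH over WxH (vertical axis) on each of the 4 arrays at T1, T2 and T3, with filled circles for PxH in Cy5, open diamonds for WxH in Cy5 and the mean as a line. At T2 all arrays of FN1, SPARC and MGP lie between -1.20 and -0.38, while FBN1, THBS2 and SPP1 lie on both sides of 0.

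At T1 none of the 6 genes differed past the threshold, with fitted values from -0.11 to 0.13, and at T3 none did either, where 0.753% and 0.539% of features were called. FN1 at T3 was -0.29, -0.46, -0.88 and -0.35 on its arrays (fitted -0.53, SE 0.14, adjusted p = 0.087), and SPARC was below 0 on all 4 as well, from -0.38 to -0.16. The change from T1 to T2 was lower in PxH than in WxH for the same 3 genes, by 0.87 for FN1 (SE 0.17, adjusted p = 0.0107), 0.59 for SPARC (SE 0.12, adjusted p = 0.0164) and 0.84 for MGP (SE 0.19, adjusted p = 0.0385), against 0.910% of features called in that direction and 1.13% in either. Each of these calls was lost without the arrays numbered 1 or 2: FN1 was then at -0.68 and -0.82, SPARC at -0.53 and -0.61 and MGP at -1.09 and -0.83. SPARC (-0.46, adjusted p = 0.0876) and MGP (-0.71, adjusted p = 0.127) were also lost without centring of the arrays, and MGP with the median of its elements (-0.83, adjusted p = 0.106). That test uses the T1 and T2 arrays of the sire breeds again and is not independent of the difference at T2. The difference between the sire breeds in the change from T1 to T3 or from T2 to T3 was not past the threshold for any of the 6 genes, where 0.116% and 0.840% of features were.

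Beside this difference at T2, the collagens COL1A1 and COL1A2 were lower in PxH by 1.21 and 1.01 and FMOD by 1.13, and the other 5 collagens and 7 proteoglycans were not past the threshold. Of 8 adipocyte markers 4 were lower in PxH at T2, SCD by 1.44, ADIPOQ by 1.25, FABP4 by 1.13 and PLIN1 by 0.47 (median of the 8 -0.53). Of 3 endothelial and mural markers CNN1, a smooth muscle gene, was lower by 0.57. ACTA2 (0.12) and EGFL7 (-0.30) were not past the threshold. None of 5 immune or 11 muscle fibre markers was past the threshold. At T3 COL3A1 was lower in PxH by 0.54, and the other 6 collagens were not past the threshold. Of 8 adipocyte markers SCD was higher by 0.92, and the other 7 were not past it (median of the 8 -0.18). Of 11 muscle fibre markers MYH1 was higher by 0.54, and the other 10 were not past it. The part of fat or connective tissue content in the T2 values was not tested. The clones of the 3 genes were all below 0 at T2, from -1.12 to -0.42 for FN1, -0.93 to -0.04 for SPARC and -0.93 to -0.18 for MGP.

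One further array set PxH RNA of T1 against itself. The 6 genes lay between -0.27 (SPP1) and 0.08 (MGP) there, inside the range from -0.83 to 0.62 that held the middle 95% of its features. Most of these features are single elements, whereas the 6 genes are means of 2 (THBS2) to 50 (SPARC) elements. The range is therefore wider than a like one for gene means would likely be. The fetal arrays held 19404 to 20771 values each and the later ones 20794 to 20946, with 24 to 216 and 30 to 80 ratios at the upper limit of the table. Of 4230 values of the 6 genes' elements 4 were at that limit and 23 were missing.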

How the data were processed

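Two-colour cDNA arrays of bovine longissimus muscle were used: 25 fetal, 20 later crossbred and 1 self hybridisation. The authors deposited log2 ratios of the dyes per element, taken here as Cy5 over Cy3, with an upper limit of 16.61. By the methods, intensities were edited channel by channel, corrected for background and put on the log2 scale, and which of these steps the deposited ratios went through is not given in the sources used here. Intensities were not used here, so the mixed model of the methods was not fitted. 24 columns of the table and another table of 77 columns were not used. Gene names come from the platform annotation: 4490 elements carry 1 name, 188 several and 16490 none.

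Ratios at the limit were set to missing, arrays were centred on their median, elements of 1 name were averaged per gene, other elements were kept singly, and a feature was kept if it had values on 20 of the 25 fetal or 16 of the 20 later arrays (16659 fetal, 17253 later). limma 3.58.1 in R 4.3.3 was fitted on all arrays of each experiment (Cy5 plus 1, Cy3 minus 1, dye intercept), each feature over its own arrays, with empirical Bayes moderation (residual degrees of freedom 17 and 14, prior 3.53 and 3.23). P-values were adjusted by Benjamini-Hochberg over all features, with a threshold of 0.05. Arrays were taken as independent although animals recur on several. The number of arrays limits the precision.

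The 6 genes and the lists were chosen with earlier results of these data known. Beside the 6 genes, the text names the 3 genes of each matrix list with the largest change past the threshold for birth over d 60, those past it for T3 over T1, the 2 genes most like each of the 6, and measured markers. Other list genes, and list genes at T2, were named after their values were seen. Alternatives were no centring, scaling to the same spread, ratios at the limit kept, no filter, no dye term, array weights, median of elements, trend and robust moderation, a block for the array number, leaving out each array number, and leaving out d 60.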

Additional observations from a re-analysis of the deposited data

Results flagged for a closer look

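Of 24 sets of 4 arrays, 1 held an array far from the other 3: THBS2 of PxH over WxH at T3, where the third array was at -0.43 and the others were between 0.09 and 0.13. About 1 in 20 such sets is marked by chance.

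The sire breeds differed in the change from d 60 to birth for FN1 (PxH minus WxH -0.85, adjusted p = 0.0383) and FBN1 (-1.40, adjusted p = 0.00936), and in the change from T1 to T2 for FN1 (-0.87, adjusted p = 0.0107), SPARC (-0.59, adjusted p = 0.0164) and MGP (-0.84, adjusted p = 0.0385). All 5 differences were lost without the arrays of 1 or more numbers.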

How the results depend on the processing

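Of 210 values of the 6 genes, 79 were past the threshold, and none of these changed sign under any alternative. The fall of FN1, FBN1, SPARC, THBS2 and SPP1 and the rise of MGP from d 60 to birth, as means of both sire breeds, were past the threshold under all 13 alternatives run on them. For the difference between the sire breeds in the change from d 60 to birth, 2 of the 6 genes passed, 1 without centring (FBN1), 4 with array weights, 1 with the replicate block (FBN1), and 0 to 3 with 1 array number left out. Array weights took the number from 0 to 1 for PxH over WxH at d 60 (THBS2), from 0 to 2 for the differences in single intervals (FN1 and FBN1) and from 0 to 1 at T3 (FN1). From T2 to T3, 3 genes passed, and 1 with the median of the elements (SPARC). From T1 to T2, 1 passed, and 2 with the replicate block (MGP and THBS2). With 1 array number left out, 2 to 4 genes passed from d 135 to d 195 and 15 to 23 values, in place of 24, for the intervals within a sire breed. Likewise 0 to 1 genes passed from T1 to T2, 0 to 3 from T2 to T3, 0 to 2 from T1 to T3 and 0 to 3 for PxH over WxH at T2. These fits hold fewer arrays, and the cause of the other shifts was not tested.

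The median correlation of the deviations of arrays of the same number was -0.01 over the fetal arrays, with 24 of 84 pairs over 0.1, and 0.18 over the later arrays, with 28 of 48 pairs over 0.1, against -0.01 and 0.04 for other numbers. For other numbers 61 of 189 fetal and 55 of 120 later pairs were over 0.1. In the fetal loop each group was in Cy5 on a link and in Cy3 on its other link. An animal shared by these links would thus give a negative value, and links without a common group share no animal. On the later arrays the sign likewise depends on the dyes. The counts over 0.1 therefore cannot show whether the numbers pair the arrays, and the main fits used no pairing. With the replicate block MGP at T2 was -0.54 for PxH over WxH (adjusted p = 0.194), and its T1 to T2 difference between the sire breeds was -0.82 (adjusted p = 0.0562). For the difference from d 60 to birth, 2198 of all features passed, 798 without centring and 5026 with array weights. Of those passing, 39.9% were higher, and 56.6% without centring. Without centring the median of all features moved from -0.07 to -0.22 for birth over d 60. The number of arrays, down to 2 per link at T1 to T3, limits the precision.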
